A study of Homo sapiens with 10 samples.

Results

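This account covers 40 genes of collagen, matrix and mesenchyme, chosen by name, out of 19974 protein-coding genes on chromosomes 1 to 22 and X of the RefSeq table of GRCh38. They were 5 fibrillar collagen genes, 5 network and beaded collagen genes, 5 lysyl oxidase genes, 5 genes of matrix glycoproteins and proteoglycans, 4 of matrix proteases and their inhibitors, 4 osteoblast genes, 6 of the actin cytoskeleton and intermediate filaments, 5 of surface receptors and small mesenchymal proteins, and TWIST1. For each gene, with 1 kb added at both ends, the percent of bases under peaks was measured in 5 DRIP libraries.

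DRIP-seq pulls down RNA-DNA hybrids with the S9.6 antibody and sequences them. The cells were U2OS, an established human osteosarcoma line. WT cells and the SCAN1#1 line were each measured in experiments 1 and 2, and the SCAN1#2 line in experiment 2 alone. Both SCAN1 lines carry TDP1 H493R, the substitution behind SCAN1, an inherited ataxia with axonal neuropathy. The groups were thus 2 WT and 3 SCAN1 libraries. No treatment is named in the labels, and the labels do not say whether the SCAN1 lines are single clones or whether replicates were separate cultures, so p-values measure only the spread between these libraries. Experiment 1 used 1 lot of the antibody and experiment 2 a mix of 2 other lots. Input samples were not analysed here, and the depth of the libraries is unknown.

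Fibrillar collagens of connective tissue are assembled from type I, III and V chains, while type IV chains form basement membrane networks and type VI chains form beaded filaments. Lysyl oxidases cross-link collagen, and mesenchymal cells such as osteoblasts make this matrix while carrying vimentin and actin filaments bound to tropomyosin. An R-loop is an RNA-DNA hybrid with a displaced DNA strand that forms in transcribed sequence. TDP1 resolves topoisomerase 1 trapped on DNA, and topoisomerase 1 relaxes the supercoils that transcription leaves behind.

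The 5 deposited lists held between 63456 and 110745 peaks. To set libraries side by side, the 63456 peaks of highest -log10 p were taken from each, which covered between 40.7 and 46.5 Mb. All coverage values below come from these lists of equal length unless the deposited lists are named. The weakest peak kept had a -log10 p of 3.87 in SCAN1#1 replicate 1 and of 9.92 in SCAN1#1 replicate 2, so the lists were cut at different heights. Markers of other cell types varied by type. The median of the libraries' mean coverage was 0.0% over the muscle and liver list, 0.172% over the blood list, 0.903% over the endothelial list, 2.06% over the neuronal list and 8.01% over the epithelial list. CD3E, MYOD1, DES, ALB and APOA1 had no coverage in any library, while CLDN4 had a mean of 16.4%, TUBB3 one of 10.7% and EPCAM one of 8.01%. KRT18, a keratin gene of simple epithelia, was covered over 94.3% to 100% of its length in all 5 libraries, and KRT8 over 19.5% to 25.5%. The 11 osteoblast and mesenchymal markers had a median of 1.04%. Of these, BGLAP had a mean of 81.2%, VIM one of 41.4%, COL1A1 one of 38.8% and SPARC one of 20.8%, while RUNX2 and ALPL had between 0.339% and 2.52% in each library and SPP1, COL1A2 and TWIST1 had no coverage. Coverage by hybrids is not expression, and these values do not settle the cell type.

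Peaks reached 8 of the 29 promoters of these genes that RefSeq sequence was matched to in all 5 libraries, which is 27.6%, against 11.6% of 15812 protein-coding promoters. A promoter here is the window of 300 bases from 250 before to 50 after the RefSeq start on GRCh38.p14. Those 8 belonged to COL5A1, COL6A2, ACTA2, TPM1, TPM2, THBS1, MMP14 and ITGB1. Another 14 (48.3%, against 68.5% of all promoters) had no peak in any library. Sequences are shown for 5 genes whose peaks carry the results below, to set windows under peaks in every library beside windows that were not. Capitals mark the bases that lay under a deposited peak in all 5 libraries.
TPM1, chr15:63048239-63048538, plus strand: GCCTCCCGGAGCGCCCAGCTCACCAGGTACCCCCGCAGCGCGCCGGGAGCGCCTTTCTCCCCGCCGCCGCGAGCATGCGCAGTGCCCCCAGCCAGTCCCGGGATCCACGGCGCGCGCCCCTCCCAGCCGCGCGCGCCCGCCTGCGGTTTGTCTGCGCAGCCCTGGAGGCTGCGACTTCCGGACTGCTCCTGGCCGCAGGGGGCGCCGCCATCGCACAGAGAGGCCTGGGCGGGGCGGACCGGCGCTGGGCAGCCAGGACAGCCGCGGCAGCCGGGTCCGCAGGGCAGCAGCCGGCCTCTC
TPM2, chr9:35690007-35690306, minus strand: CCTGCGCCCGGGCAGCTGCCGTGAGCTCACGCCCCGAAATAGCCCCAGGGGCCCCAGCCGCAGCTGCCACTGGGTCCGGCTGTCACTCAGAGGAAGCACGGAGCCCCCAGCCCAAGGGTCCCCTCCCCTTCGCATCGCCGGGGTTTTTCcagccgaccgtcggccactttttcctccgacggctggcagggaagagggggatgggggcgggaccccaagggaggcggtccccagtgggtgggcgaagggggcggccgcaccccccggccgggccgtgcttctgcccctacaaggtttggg
MMP14, chr14:22836335-22836634, plus strand: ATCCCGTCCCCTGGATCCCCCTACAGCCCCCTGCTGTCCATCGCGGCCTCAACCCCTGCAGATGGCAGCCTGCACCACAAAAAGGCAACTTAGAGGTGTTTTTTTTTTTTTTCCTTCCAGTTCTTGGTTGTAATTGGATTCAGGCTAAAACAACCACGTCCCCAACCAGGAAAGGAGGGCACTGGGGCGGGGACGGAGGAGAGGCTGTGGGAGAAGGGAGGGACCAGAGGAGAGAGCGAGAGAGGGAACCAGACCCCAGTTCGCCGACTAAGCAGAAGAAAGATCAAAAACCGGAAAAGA
LOXL1, chr15:73926212-73926511, plus strand: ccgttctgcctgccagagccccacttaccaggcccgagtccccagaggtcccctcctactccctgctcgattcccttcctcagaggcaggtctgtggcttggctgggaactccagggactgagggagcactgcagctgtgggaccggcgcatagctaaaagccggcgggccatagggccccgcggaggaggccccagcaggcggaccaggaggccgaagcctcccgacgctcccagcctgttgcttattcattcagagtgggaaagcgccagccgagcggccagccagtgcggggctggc
LOXL4, chr10:98268145-98268444, minus strand: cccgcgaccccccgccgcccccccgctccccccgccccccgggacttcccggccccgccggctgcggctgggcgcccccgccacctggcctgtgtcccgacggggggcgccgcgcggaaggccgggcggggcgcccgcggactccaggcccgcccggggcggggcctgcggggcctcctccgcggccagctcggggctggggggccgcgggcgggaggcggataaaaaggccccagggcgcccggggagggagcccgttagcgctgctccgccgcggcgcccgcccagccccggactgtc
The windows of TPM1 and MMP14 were under peaks from end to end in every library, and 149 bases of the TPM2 window were. The LOXL1 window was fully covered in both WT libraries and in SCAN1#1 replicate 1, over 235 bases in SCAN1#1 replicate 2, and not at all in SCAN1#2. In LOXL4, peaks reached 25 bases of the window in SCAN1#1 replicate 1, 17 in SCAN1#1 replicate 2 and none in the other libraries. The GC content of the windows was 78.3% in TPM1, 72.3% in TPM2, 55.0% in MMP14, 67.3% in LOXL1 and 85.3% in LOXL4. The TPM1 window starts at a RefSeq start 5742 bases inside the gene's outer boundary, so it is an internal start.

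Over the 29 windows the median GC content was 67.3%, against 62.7% over all 15812, and the median ratio of observed to expected CpG was 0.626, against 0.763. The motif TATAAA, read on both strands, was in 2 of the 29 (6.90%, against 9.64% of all windows). They were COL6A2, at 32 bases before the start, and BGLAP, at 28 bases before it. A run of GGG on either strand was in all of the 29 windows and in 99.8% of all. These letter matches describe the windows only.

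Between 31 and 34 of the 40 genes had a peak in any one library, or 77.5% to 85%, against 61.1% to 65.6% of all coding genes. Their mean coverage was 19.8% in WT replicate 1, 16.4% in WT replicate 2, 17.9% in SCAN1#1 replicate 1, 16.6% in SCAN1#1 replicate 2 and 14.4% in SCAN1#2. Over all coding genes it was 6.54% to 9.08%. Median coverage was between 4.06% and 6.18%, against 0.751% to 1.24%. Another coding gene overlaps 16 of the 40 or their added 1 kb, so that peaks in the shared bases cannot be assigned to 1 gene. They are COL4A1, COL4A2, COL5A2, FN1, LOX, LOXL2, LOXL3, BGLAP, RUNX2, TAGLN, ACTA2, TPM2, THBS1, TIMP1, TIMP3 and BGN. For COL4A1 and COL4A2 the overlap lies in the added bases only. A few short genes held the high values. The 12 genes under 15 kb had a median of 29.6% over the mean of the libraries, the 14 genes from 15 to 50 kb one of 12.4%, and the 14 genes of 50 kb and longer one of 1.58%. Against coding genes of like length, 12 of the 40 lay above the 90th percentile: COL1A1, COL5A1, SPARC, LOXL1, LOXL2, LOXL3, LOXL4, BGLAP, TPM1, TPM2, CD44 and LGALS1.

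**Figure D1:**
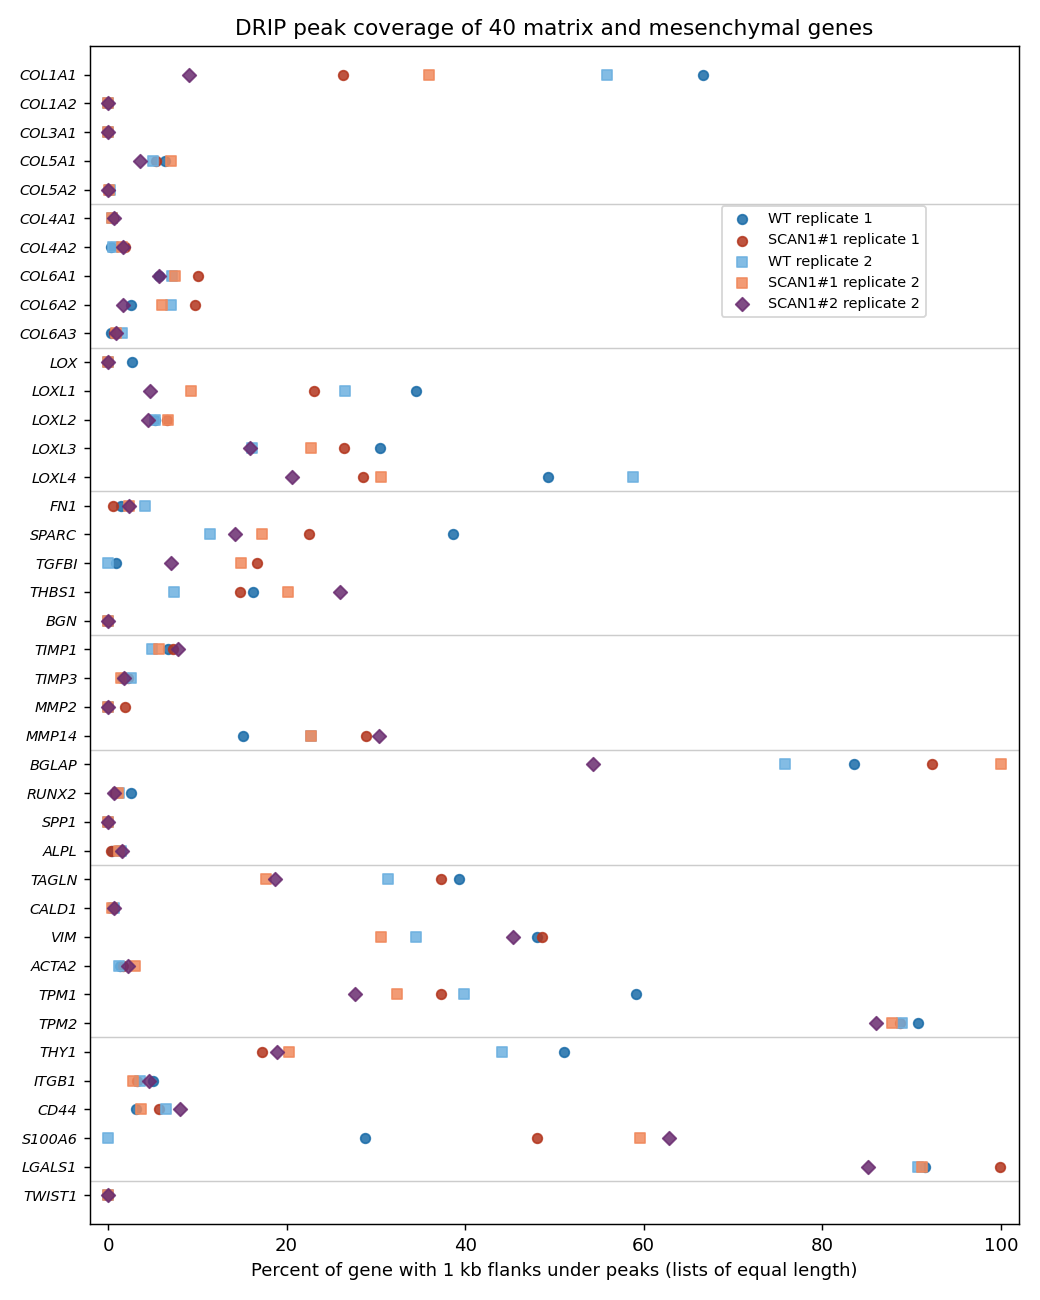
Percent of each of the 40 genes (with 1 kb added at both ends) under peaks, 1 point per library, from peak lists of equal length, with lines between the role groups. LGALS1, TPM2 and BGLAP sit at the right, COL1A1 and THY1 spread widely with the WT points rightmost, and COL1A2, COL3A1, SPP1, BGN and TWIST1 lie at 0 in every library.

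The merged peaks of all deposited lists formed 292 regions in 38 of the 40 genes. Of these, 124 were seen in 1 library and 64 in all 5. As peaks were merged gene by gene, those at the adjoining starts of COL4A1 and COL4A2 are counted under both genes. Regions at gene starts were mostly shared: 65.4% of 26 were in all 5 libraries. Regions inside genes were mostly not, with 15.7% of 235 in all 5, and of 18 at far ends 11.1% were. Of the 29 genes whose strand is given, starts (1 kb on either side) were covered over 37.9% in WT replicate 1, 26.9% in WT replicate 2, 38.0% in SCAN1#1 replicate 1, 34.9% in SCAN1#1 replicate 2 and 32.9% in SCAN1#2. The same windows of all coding genes were covered over 12.7% to 15%. Bases inside the genes were covered over 3.36% to 4.80%, against 1.63% to 1.98%, and far ends over 9.29% to 14.2%, against 6.94% to 11%. In 17 of the 29 no far end was covered in any library. The start of 7 genes (TGFBI, RUNX2, SPP1, ALPL, CALD1, TIMP1 and BGN) was bare in every library. Bare starts and far ends were not counted over all coding genes, so these counts have no share to be set against. A start here is the outer boundary of the gene. The RefSeq start of the CALD1 promoter window lies 68135 bases inside that boundary.

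**Figure D2:**
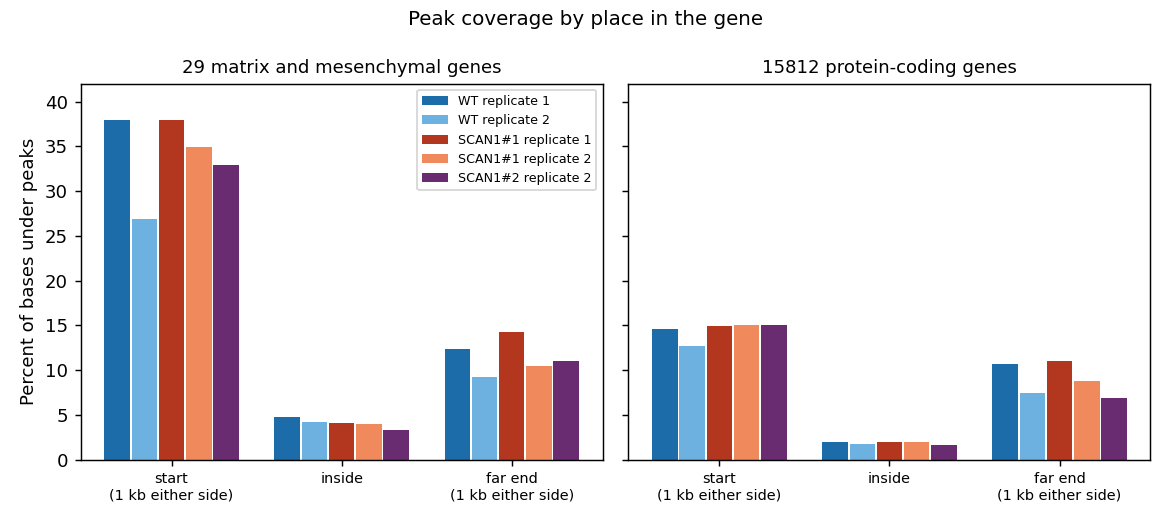
Bars give the percent of bases under peaks at gene starts, inside genes and at far ends, 1 bar per library, for the 29 genes with a known strand (left) and for 15812 protein-coding genes (right). The left panel's start bars run from 26.9% to 38.0%, all above the right panel's 12.7% to 15%, and far ends lie lower than starts in both panels.

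The design sets SCAN1 against WT cells, to ask how the TDP1 change bears on hybrids. Of the 40 genes, 24 had a mean coverage of at least 2% and were tested. None passed an adjusted p of 0.05 with limma and Benjamini-Hochberg adjustment over all 8472 genes tested (0.0% called), and the adjusted p was 1.0 for each of the 24. The SCAN1 mean lay above the WT mean for 12 genes and below it for 12, with a median difference of -0.10 percentage points, against 0.08 over all genes tested. An unadjusted p under 0.05 was reached in the lower direction by 4 of the 24 (COL1A1, THY1, LOXL1 and LOXL4), or 16.7%, against 1.55% of all tested genes. In the higher direction 2 (TGFBI and S100A6), or 8.33%, reached it, against 1.94%. All 3 SCAN1 libraries lay below both WT libraries for 6 genes (25.0%, against 6.86% of all tested) and above both for 3 (12.5%, against 9.48%). The genes were picked with earlier results of these data known, so these shares are no independent evidence.

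**Figure D3:**
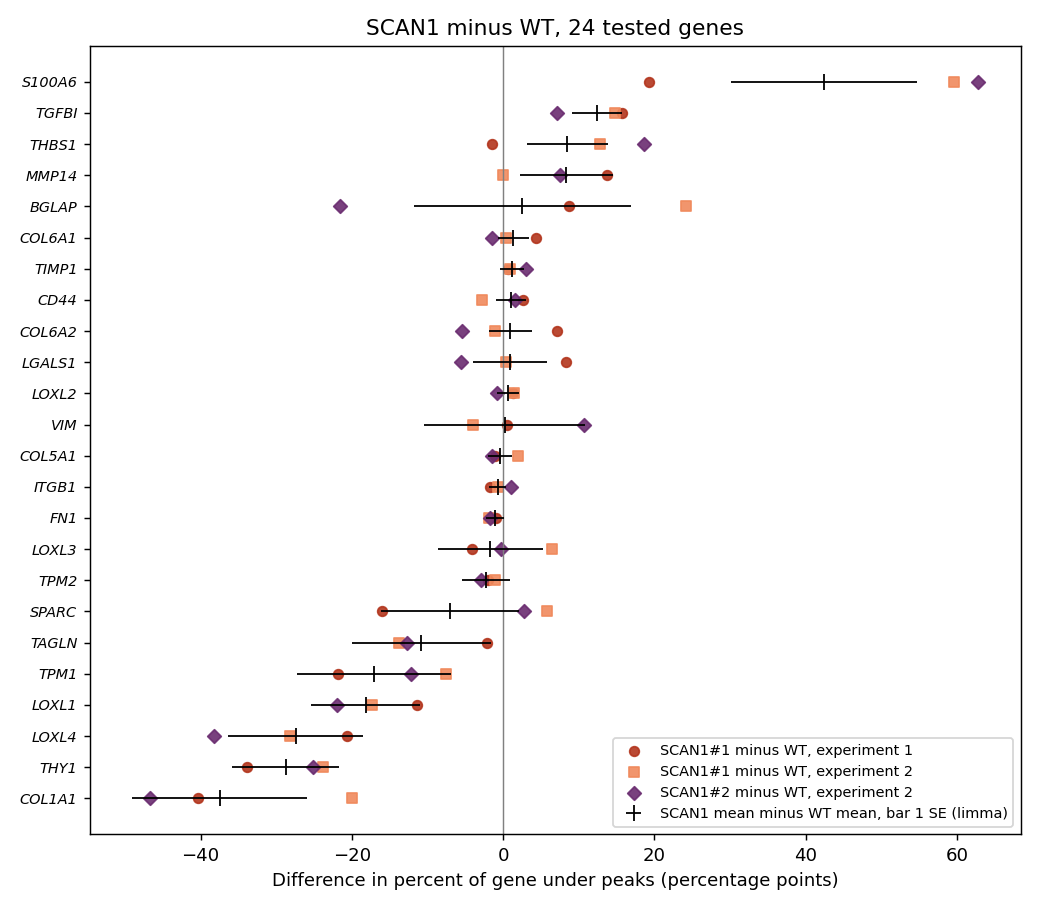
SCAN1 minus WT coverage in percentage points for the 24 tested genes: points are the 3 differences within experiments, the black ticks the difference of the means and the bars 1 SE from limma. COL1A1, THY1, LOXL4, LOXL1, TPM1, TAGLN, TPM2 and FN1 have all 3 points below 0, while S100A6, TGFBI, MMP14 and TIMP1 have all 3 above it.

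COL1A1 (chr17:50184101-50201631), the gene of the alpha 1 chain of type I collagen, was covered over 66.7% and 55.8% in WT of experiments 1 and 2. In SCAN1#1 it was covered over 26.4% and 35.9%, and in SCAN1#2 over 9.09%. Every SCAN1 library lay below both WT libraries. The difference was -37.4 percentage points (SE 11.6 from limma, unadjusted p = 0.021, adjusted p = 1.0). It lay inside the gene: more than 1 kb from both ends, coverage was 64.9% and 62.7% in WT, 16.8% and 33.5% in SCAN1#1 and 3.32% in SCAN1#2 (difference -45.9, SE 12.8, unadjusted p = 0.018, adjusted p = 1.0 over 6723 genes, of which 1.83% were lower and 1.74% higher at that level and 0.0% were called). The end of higher coordinate was covered in all 5 libraries, over 65.1% and 58.0% in WT, 60.7% and 58.8% in SCAN1#1 and 63.0% in SCAN1#2. The other end varied, at 82.1% and 0.0% in WT, 66.1% and 31.8% in SCAN1#1 and 0.0% in SCAN1#2. For both COL1A1 ends together the difference was -4.56 (SE 16.7, unadjusted p = 0.80). The strongest COL1A1 peak was at an end in every library, with a deposited fold enrichment of 11.5 to 29.8. In the deposited lists, which keep weaker peaks, coverage was 66.7% and 72.9% in WT, 26.4% and 50.8% in SCAN1#1 and 21.0% in SCAN1#2. The 5 Mb around COL1A1 held a larger share of all peak bases in SCAN1#1 than in WT of the same experiment (log2 ratios 0.26 and 0.40) and about the same in SCAN1#2 (-0.01).

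The partner chain gene COL1A2 was different. It had no peak in the lists of equal length and 1 weak peak, in SCAN1#2, in the deposited lists. COL3A1, of type III collagen, had the same pattern. COL5A1, of type V collagen, is 203 kb long and held 12 to 18 peaks per library. Its coverage was 6.40% and 4.99% in WT, 5.32% and 7.03% in SCAN1#1 and 3.53% in SCAN1#2. The groups overlapped, with a difference of -0.40 (SE 1.58, unadjusted p = 0.81). With 7 regions in all 5 libraries, COL5A1 held more such regions than any other of the 40. COL5A2 stayed at or under 0.232% in every library.

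The network and beaded collagens were sparsely covered. COL4A1 and COL4A2, which lie next to each other on chromosome 13, did not exceed 1.93%. Their starts lie side by side, so the start windows share bases, and that of COL4A2 was covered over 17.4% to 44.8%. COL6A3 did not exceed 1.58%. COL6A1 was covered over 5.71% and 7.12% in WT, 10.1% and 7.50% in SCAN1#1 and 5.72% in SCAN1#2. COL6A2, its neighbour on chromosome 21, was covered over 2.60% and 7.10% in WT, 9.80% and 5.99% in SCAN1#1 and 1.72% in SCAN1#2. The COL6A1 values of the groups overlapped, and the COL6A2 values of SCAN1 lay on both sides of the WT values (differences 1.37, SE 2.01, and 0.99, SE 2.83). The strongest COL6A1 peak had a deposited fold enrichment of 34.6 and 38.9 in the SCAN1 libraries of experiment 2, and of 7.36 to 19.8 elsewhere. That peak lay outside the gene, beyond its end of lower coordinate, and reached only the added 1 kb.

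Among the lysyl oxidases, LOXL4 (chr10:98247690-98268194) and LOXL1 (chr15:73926462-73952136) had lower SCAN1 values in every comparison. LOXL4 was covered over 49.3% and 58.8% in WT, 28.6% and 30.6% in SCAN1#1 and 20.6% in SCAN1#2. Its groups did not overlap (difference -27.4, SE 8.97, unadjusted p = 0.026). Inside the gene the LOXL4 values were 49.7% and 64.6% in WT, 26.3% and 32.0% in SCAN1#1 and 18.5% in SCAN1#2 (difference -31.6, unadjusted p = 0.039), while its start was covered over 48.4% to 78.2% in all libraries. The surroundings of LOXL4 held a smaller share of peak bases in all 3 comparisons (log2 ratios -0.32, -0.14 and -0.01), and their part in the result was not tested.

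LOXL1 was covered over 34.5% and 26.6% in WT, 23.1% and 9.29% in SCAN1#1 and 4.66% in SCAN1#2. The highest SCAN1 value, of experiment 1, lay just below the lower WT value (difference -18.2, SE 7.17, unadjusted p = 0.049). Here the start differed too: it was covered over 100% and 83.2% in WT, 75.9% and 58.8% in SCAN1#1 and 14.1% in SCAN1#2, the library in which the promoter window printed above had no peak. LOXL3 overlapped between the groups, at 30.5% and 16.2% in WT, 26.4% and 22.7% in SCAN1#1 and 15.9% in SCAN1#2. LOX, the founding member of the family, had coverage in WT replicate 1 alone, at 2.64%.

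LOXL2, on chromosome 8, carried the strongest peak of all 40 genes. It lay inside the gene, with a deposited fold enrichment of 81.3 and 59.9 in WT, 51.7 and 73.0 in SCAN1#1 and 72.6 in SCAN1#2. By -log10 p it ranked between 79 and 133 in its own list. Coverage of the long LOXL2 gene was nonetheless low, from 4.44% to 6.70%, and SCAN1 and WT overlapped (difference 0.66, SE 1.42). The share of peak bases in its surroundings was higher in all 3 comparisons (log2 ratios 0.53, 0.56 and 0.56).

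**Figure D4:**
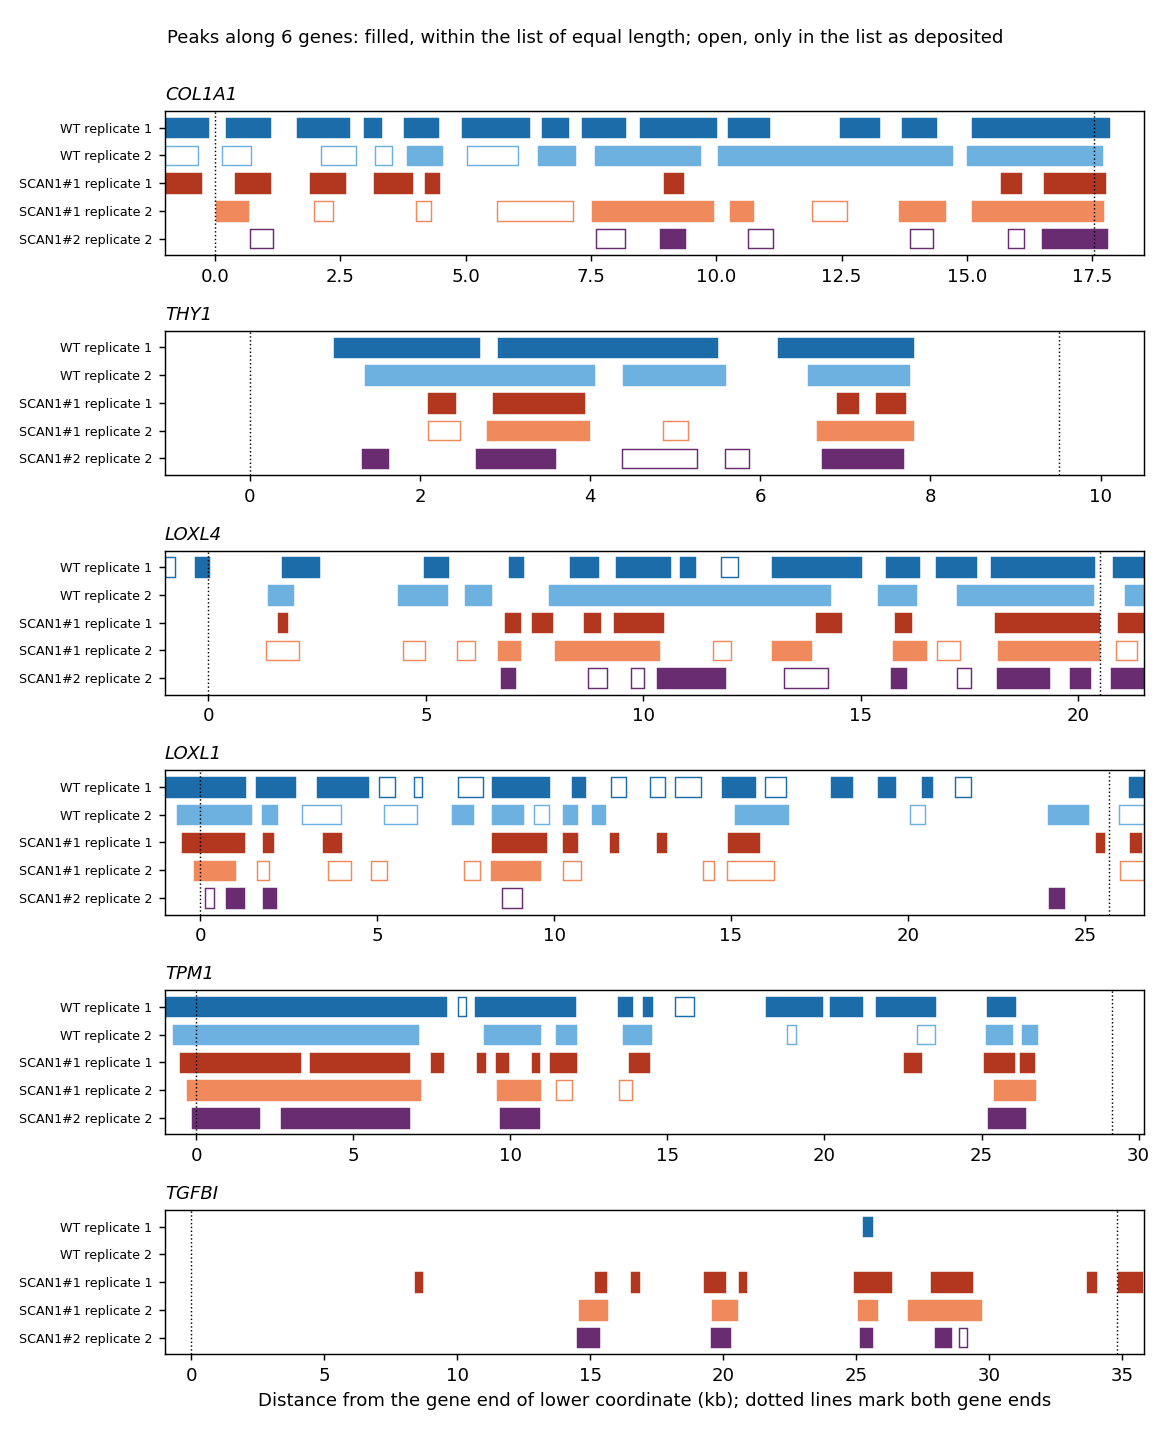
Peaks of each library along COL1A1, THY1, LOXL4, LOXL1, TPM1 and TGFBI, by distance in kb from the gene end of lower coordinate, with dotted lines at both gene ends. Filled boxes are peaks of the lists of equal length and open boxes peaks only in the deposited lists. In COL1A1 the block of peaks near 17.5 kb is in all 5 rows, while the rest of the gene is more densely filled in the WT rows, and TGFBI is filled mainly in the SCAN1 rows.

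Of the matrix glycoproteins, TGFBI (chr5:136028988-136063818), a secreted adhesion protein induced by TGF-beta, was covered over 0.934% in WT replicate 1 and 0.0% in WT replicate 2. In SCAN1#1 it was covered over 16.7% and 14.9%, and in SCAN1#2 over 7.10%. All SCAN1 values lay above both WT values (difference 12.4, SE 3.31, unadjusted p = 0.012, adjusted p = 1.0). The peaks lay in the body of the gene, except for 2 at the far end in SCAN1#1 replicate 1, and its start was bare in every library. Of 4 merged regions among the 40 genes that were found in all 3 SCAN1 libraries and in neither WT library, 3 were in TGFBI, beginning 14489, 19281 and 26961 bases from its start. The fourth was in LOXL2. Conversely, 2 regions, 1 in LOXL1 and 1 in TPM1, had peaks from both WT lists alone. All these regions come from the deposited lists, which differ in length. Such regions were not counted over all genes, so the counts have no share to be set against. WT replicate 2 had no TGFBI peak even in its deposited list. The share of peak bases in the 5 Mb around TGFBI had log2 ratios of 0.48, 0.15 and -0.06.

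SPARC, a collagen-binding glycoprotein of bone, was covered over 38.6% in WT replicate 1 and 11.4% in WT replicate 2. The SCAN1 values of 22.5%, 17.2% and 14.2% lay between them (difference -7.01, SE 9.11). THBS1, the gene of thrombospondin 1, was covered over 16.3% and 7.36% in WT, 14.7% and 20.2% in SCAN1#1 and 26.0% in SCAN1#2. The THBS1 groups overlapped through experiment 1 (difference 8.50, SE 5.39, unadjusted p = 0.17). FN1, of fibronectin, was covered over 1.41% and 4.15% in WT, 0.512% and 2.36% in SCAN1#1 and 2.37% in SCAN1#2. Its SCAN1 values were lower within each experiment but not across experiments. BGN, of the proteoglycan biglycan, had no peak in any deposited list.

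MMP14, a membrane-bound protease that cleaves collagen, was covered over 15.2% and 22.8% in WT, 29% and 22.8% in SCAN1#1 and 30.3% in SCAN1#2. In experiment 2 the WT and SCAN1#1 values differed by only 0.015 percentage points (difference of the group means 8.38, SE 6.13, unadjusted p = 0.23). At the start of MMP14 coverage was 66.8% and 56.6% in WT and 100% in all 3 SCAN1 libraries, around the window printed above that every library covered. For both gene ends together the MMP14 difference was 22.3 (SE 8.06, unadjusted p = 0.040, adjusted p = 0.95 over 9305 genes). Of those genes 2.85% were higher and 1.57% lower at that level, and 0.0% were called. Among 25 tested genes of the set, MMP14 and S100A6 reached it, or 8%, both in the higher direction. S100A6 is so short that its end windows take in the whole gene.

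TIMP1, an inhibitor of matrix proteases, had 1 peak in each library and was covered over 6.67% and 4.88% in WT, 7.29% and 5.76% in SCAN1#1 and 7.85% in SCAN1#2 (difference 1.19, SE 1.59). TIMP3 did not exceed 2.54%. MMP2, of gelatinase A, had 1.91% in SCAN1#1 replicate 1 and none in the other lists of equal length.

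Of the osteoblast genes, only BGLAP, of osteocalcin, was highly covered. The coding genes PMF1-BGLAP and PAQR6 overlap BGLAP or its added 1 kb, so the peaks cannot be assigned to BGLAP. BGLAP was covered over 83.5% and 75.8% in WT, 92.2% and 100% in SCAN1#1 and 54.3% in SCAN1#2. Both SCAN1#1 values lay above WT and the SCAN1#2 value below it (difference of the means 2.52, SE 14.4). RUNX2, the transcription factor of the osteoblast lineage, and ALPL, of alkaline phosphatase, stayed at or under 2.52%. SPP1, of osteopontin, had a single peak in each of the deposited lists of SCAN1#1 replicate 2 and SCAN1#2.

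The tropomyosin genes were among the most covered. TPM1 (chr15:63042747-63071915) was covered over 59.2% and 39.9% in WT, 37.3% and 32.3% in SCAN1#1 and 27.7% in SCAN1#2. Its highest SCAN1 value was below the lower WT value (difference -17.1, SE 10.2, unadjusted p = 0.15). Without WT replicate 1 the difference was -7.42. The strongest TPM1 peak of each library had a deposited fold enrichment of 33.4 and 29.2 in WT, 16 and 34.1 in SCAN1#1 and 36.7 in SCAN1#2. In SCAN1#1 replicate 1 it was a different peak, with its summit 6029 bases from the gene start, against 597 to 667 bases in the other libraries. TPM2 was covered over 90.7% and 88.9% in WT, 88.7% and 87.8% in SCAN1#1 and 86.0% in SCAN1#2. These TPM2 groups did not overlap, but the difference was small (-2.28, SE 3.19, unadjusted p = 0.51 with limma). The coding gene CA9 overlaps TPM2 or its added 1 kb.

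TAGLN, of the actin-binding protein transgelin, was covered over 39.4% and 31.4% in WT, 37.3% and 17.7% in SCAN1#1 and 18.7% in SCAN1#2. Its values differed more in experiment 2 than in experiment 1, and the groups overlapped (difference -10.8, SE 9.19, unadjusted p = 0.29). VIM, of the intermediate filament protein vimentin, was covered over 48.0% and 34.5% in WT, 48.6% and 30.6% in SCAN1#1 and 45.3% in SCAN1#2 (difference 0.20, SE 10.7). Its strongest peak had its summit 1709 to 1852 bases from the annotated start in every library, with a deposited fold enrichment of 24.6 to 58.3. ACTA2 and CALD1 did not exceed 2.99%. For ACTA2, of smooth muscle actin, the start was covered over 39.5% and 36.8% in WT, 48.1% and 66.6% in SCAN1#1 and 63.5% in SCAN1#2, so that all SCAN1 values lay above both WT values. The ACTA2 peak there had a deposited fold enrichment of 6.05 and 6.09 in WT, 10.1 and 10.1 in SCAN1#1 and 10.8 in SCAN1#2. For both ends together the ACTA2 difference was 10.6 (SE 4.78, unadjusted p = 0.078, adjusted p = 0.95 with limma). The coding gene FAS overlaps ACTA2 or its added 1 kb.

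THY1 (chr11:119415476-119424985), a surface glycoprotein of fibroblasts and other mesenchymal cells, was covered over 51.1% and 44.1% in WT, 17.2% and 20.3% in SCAN1#1 and 19.0% in SCAN1#2. The 3 SCAN1 values lay close together and far below both WT values (difference -28.8, SE 7.09, unadjusted p = 0.0084, adjusted p = 1.0). The THY1 peaks lay inside the gene, where coverage was 78.1% and 67.6% in WT, 26.4% and 31.1% in SCAN1#1 and 29.1% in SCAN1#2. Both main regions of THY1 were nevertheless present in all 5 libraries, with narrower peaks in SCAN1. In the deposited lists the widest THY1 peak measured 2577 and 2697 bases in WT, 1070 and 1196 in SCAN1#1 and 952 in SCAN1#2. With the deposited lists, THY1 coverage was 51.1% and 44.1% in WT, 17.2% and 26.2% in SCAN1#1 and 29.1% in SCAN1#2. The 5 Mb around THY1 held a slightly larger share of peak bases in SCAN1 (log2 ratios 0.01, 0.19 and 0.11), the opposite direction.

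S100A6 (chr1:153534599-153535991), a small calcium-binding protein, was covered over 28.7% and 0.0% in WT, 48.1% and 59.6% in SCAN1#1 and 62.8% in SCAN1#2. All SCAN1 values exceeded both WT values (difference 42.5, SE 12.3, unadjusted p = 0.016, adjusted p = 1.0). WT replicate 2 had S100A6 peaks that were too weak for the list of equal length. In the deposited lists coverage was 40.9% and 19.9% in WT against 48.1%, 59.6% and 62.8%. Without WT replicate 2 the difference in the lists of equal length was 28.1.

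LGALS1, of galectin 1, lay under a single wide peak in each library, with coverage of 91.5% and 90.7% in WT, 99.9% and 91.1% in SCAN1#1 and 85.2% in SCAN1#2. It was the most covered of the 40 genes on average. CD44, the hyaluronan receptor, was covered over 3.13% and 6.49% in WT, 5.72% and 3.67% in SCAN1#1 and 8.12% in SCAN1#2. ITGB1, of integrin beta 1, was covered over 2.81% to 4.99%. Its start was covered over 90.5% and 45.6% in WT, 98.6% and 47.8% in SCAN1#1 and 76.5% in SCAN1#2. Neither CD44 nor ITGB1 separated the genotypes.

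The experiments were compared over WT and SCAN1#1. Of 24 tested genes, 17 had lower coverage in experiment 2 and 7 higher, with a median difference of -1.36 percentage points, against -1.01 over all 8384 genes tested. None reached an unadjusted p of 0.05 with limma, against 13.0% of all tested genes that were lower and 3.16% that were higher, and 0.0% were called. The lowest adjusted p among the 24 was 0.34, for VIM. VIM was covered over 48.0% and 48.6% in experiment 1 and 34.5% and 30.6% in experiment 2, without overlap in these lines. SCAN1#2, also of experiment 2 but not in this comparison, was at 45.3%. COL1A1 and THY1 differed by -0.64 (SE 16.8) and -1.93 (SE 15.4) between experiments.

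Other genes of the same pathways, 163 in 7 lists drawn up with earlier results known, were read from the same fit. Of 97 tested, none was called, none reached an unadjusted p of 0.05 in the higher direction and 2 did in the lower, TGFB3 and CNN2. The median difference was 0.04 percentage points. All 3 differences within experiments were positive for 21 genes (21.6%, against 19.4% of all tested genes) and negative for 11 (11.3%, against 15.8%). SERPINH1, the collagen chaperone HSP47, was covered over 48.2% and 44.7% in WT, 28.9% and 17.9% in SCAN1#1 and 33.3% in SCAN1#2. P4HB, a subunit of the prolyl hydroxylase that modifies collagen, was covered over 75.4% and 16.9% in WT, 54.8% and 9.11% in SCAN1#1 and 7.63% in SCAN1#2, so that its values differed most by experiment. Among 18 genes of collagen maturation, 13 were tested, with 6 above 0 and 7 below. Of 17 other collagen genes 8 were tested, with 5 above 0 and 3 below. The other genes of largest lower difference were TLN1, of talin 1, at 55.8% and 28.3% in WT and 24.1% to 39.2% in SCAN1, and CNN1, of calponin 1, at 17.8% and 8.31% in WT and 0.0% to 6.87% in SCAN1. In the other direction, ITGA3, of integrin alpha 3, was covered over 58.8% and 34.0% in WT, 79.8% and 62.3% in SCAN1#1 and 43.5% in SCAN1#2 (difference 15.5, SE 14.7, unadjusted p = 0.34). SNAI1, a transcription factor of epithelial-mesenchymal transition, was covered over 13.3% and 11.7% in WT, 25% and 14.9% in SCAN1#1 and 22.6% in SCAN1#2 (difference 8.36, SE 4.77, unadjusted p = 0.14). The rest of the genes named for higher values were S100A10, LTBP2, SRF and SMAD7. Their differences were 9.92, 9.92, 6.92 and 5.92, the first 2 larger than that of SNAI1, with unadjusted limma p values of 0.17 to 0.31. CNN2, of calponin 2, was covered over 17.5% and 13.1% in WT, 0.0% in both SCAN1#1 libraries and 9.75% in SCAN1#2 (difference -12.0, SE 3.77, unadjusted p = 0.022). TGFB3, a TGF-beta ligand, was covered over 5.63% and 5.03% in WT, 1.51% and 1.34% in SCAN1#1 and 3.56% in SCAN1#2 (difference -3.19, SE 1.08, unadjusted p = 0.029).

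The surroundings held a smaller share of peak bases in all 3 comparisons for 10 of the 40 genes and a larger share for 10. Differences of any size counted, down to log2 ratios of -0.0017 for BGLAP and 0.0031 for COL6A3. The windows of COL4A1 and COL4A2 overlap, and both comparisons of experiment 2 use the same WT library. Windows were not counted over all genes, so these counts have no share to be set against. The part of the surroundings in the results above was not tested. Peaks have no strand in the deposited lists.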

How the data were processed

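Hybrids were pulled down with S9.6 in 5 DRIP libraries, and each has 1 deposited narrowPeak list. MACS3 3.0.0a6, a peak caller, and hg38 are named in the submitters' processing notes, beside BWA 0.7.17-r1188, deepTools 3.5.1, SAMtools 1.9 and FastQC 0.11.5, without roles. The control and options of peak calling are not stated in the sources used. Per the layout of the deposited files, a peak has a score, a fold enrichment (a ratio over the caller's background), a -log10 p and a -log10 q. The score was not used for results.

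From these lists, the 63456 peaks of highest -log10 p per library gave the percent of each protein-coding gene with 1 kb at both ends, of both ends (1 kb either side) and of the bases further inside (at least 1 kb). Genes with a mean of at least 2% were fitted with limma 3.58.1 in R 4.3.3 (lmFit, eBayes with trend, Benjamini-Hochberg over all genes tested, threshold 0.05), SCAN1 (3 libraries) against WT (2 libraries), with both lines as 1 group. The fit was also run on simulated data with the same spread for every gene and no difference between experiments. These data differ in both, so nothing is concluded from that run. Surroundings are the 5 Mb around a gene without the gene. Gene positions come from the RefSeq table of GRCh38.p14, which has no strand; strand and promoters come from RefSeq promoter sequences, which matched 29 of the 40 genes. Python 3.11.15, numpy 2.4.6, pandas 2.3.3 and matplotlib 3.10.9 were used.

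Replicate numbers are experiment numbers in the labels, so they pair libraries. The main fit has no term for experiment, so its SE and p-values do not use this pairing. Experiment as a block is among the alternatives. Deviations from group means correlated by 0.612 (WT and SCAN1#1, experiment 1), 0.325 (WT and SCAN1#1, experiment 2) and 0.470 (WT and SCAN1#2, experiment 2) over 8472 genes. With 2 WT libraries the WT deviations mirror each other, so these values are not independent. The same SCAN1 libraries against WT of the other experiment gave -0.612, -0.325 and -0.470. Described in full were up to 12 genes of largest difference with 1 sign in all 3 comparisons within experiments, the 8 of highest mean coverage and those without any peak, and of pathway genes the 6 of largest difference with 1 sign per direction. Other genes of the set are given by role. The members, lists and tests were chosen with earlier results of these data known. Read depth is unknown, so no counting intervals are given. Alternatives are described in the closing section.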

Additional observations from a re-analysis of the deposited data

Results flagged for a closer look

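In 5 of the tested genes both SCAN1#1 libraries differed from WT of their experiment in one direction and SCAN1#2 in the other. The lines differed in experiment 2, as SCAN1#2 minus SCAN1#1, by -45.7 percentage points in BGLAP, -5.97 in LGALS1, -2.26 in LOXL2, -1.77 in COL6A1 and 1.73 in ITGB1. With 1 SCAN1#2 library these differences were not tested. In BGLAP peaks covered a smaller part of the 300 bases of the promoter window in WT and SCAN1#1 of experiment 1 (55 in WT), all of them in WT and SCAN1#1 of experiment 2, and none in SCAN1#2.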

How the results depend on the processing

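No gene of the set was called in any setting. Over all genes, 4 were called on the log2 scale (3 higher and 1 lower in SCAN1) and 5 between experiments on that scale (1 higher and 4 lower). Leaving out 1 library gave between 0 and 39 calls inside genes: 39 without WT replicate 2 (6 higher and 33 lower) and 2 without WT replicate 1. With experiment as a replicate block 0 genes were called, for whole genes, ends and insides. Of the 12 genes named for their differences, all kept their direction in the 59 fits that left out 1 library and in 82 of 83 other fits. The exception was TIMP1, at -1.24 with peaks of a -log10 q of at least 5; the cause was not tested. FN1 was not tested without WT replicate 2 or with a minimum mean of 5%. An unadjusted limma p under 0.05 was not kept in every setting. On the log2 scale it rose to 0.054 for COL1A1, 0.061 for S100A6 and 0.082 for LOXL1. It stayed under 0.05 there for THY1, LOXL4 and TGFBI. With the deposited lists it rose to 0.053 for S100A6 and 0.076 for LOXL4, and stayed under 0.05 for COL1A1, THY1, LOXL1 and TGFBI. With peaks of a -log10 q of at least 5 it was 0.063 for LOXL4, and without the added 1 kb 0.0565 for LOXL1. Without SCAN1#2 it was 0.053 for COL1A1, 0.0785 for LOXL4 and 0.148 for LOXL1, and stayed under 0.05 for THY1, S100A6 and TGFBI. Fits without 1 of the WT libraries leave a single WT library, so no p of theirs is given. The median difference of the set ranged from -1.75 to 0.48 percentage points. By leaving out 1 library, COL1A1 ranged from -43.5 to -30.1, THY1 from -32.2 to -25.3, TPM1 from -26.7 to -7.42, S100A6 from 28.1 to 56.8, MMP14 from 4.59 to 12.2, TAGLN from -17.2 to -6.81, TPM2 from -3.17 to -1.38, TIMP1 from 0.29 to 2.09 and FN1 from -2.41 to -0.42. The size was smallest without WT replicate 1 for TPM1, MMP14, TAGLN and TPM2, without WT replicate 2 for S100A6 and TIMP1, and without SCAN1#1 replicate 1 for FN1. TPM1 was largest without WT replicate 2, TAGLN without SCAN1#1 replicate 1, and TIMP1 and FN1 were largest without WT replicate 1. With a reciprocal overlap of 50%, 24 peaks of WT replicate 1 had a match in all other libraries, against 64 merged regions found in all 5. Read depth is unknown, and 2 WT libraries limit the precision.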
